A study of Callithrix jacchus with 20 samples.

Results

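The comparison described here was the change from precursors of mesendoderm (pre-ME) to primordial germ cell-like cells of the common marmoset (cjPGCLCs), along the route in which pre-ME was induced with Activin A (ActA). It took 4 of the 20 RNA-seq libraries of the series, chosen by their labels: 2 of pre-ME with ActA and 2 of the cjPGCLCs derived from such pre-ME. All of them came from 1 line of induced pluripotent stem cells (DPZ_cjiPSC#2), kept without feeder cells in the marmoset pluripotent stem cell medium cjPSCM, and the labels call the 2 libraries of a group biological replicates. Pre-ME cells had been exposed for 24 h to 100 ng/ml ActA, a TGF-beta family ligand, and 3 µM CHIR, an inhibitor of the kinase GSK3 that turns on WNT signalling. The cjPGCLCs had passed through the same pre-induction, were then aggregated into embryoid bodies in a medium that held BMP4 at 500 ng/ml, the cytokines LIF at 10 and SCF at 100 ng/ml, and EGF at 50 ng/ml, and were sorted by flow cytometry on day 4. The labels disagree on the sort: titles give INTa6 with EpCAM and other fields CXCR4 with EpCAM, whereas the study's methods describe a gate on CXCR4 and INTα6. Time, medium, aggregation, dissociation and the sort all changed together between these groups and cannot be told apart. Used beside them were 2 libraries of somatic cells, sorted on day 4 as negative for both markers, and 4 libraries of pre-ME and cjPGCLCs made with the same protocol but with no ActA.

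Primordial germ cells (PGCs) are the embryonic founders of sperm and eggs. In primates their specification relies on WNT and BMP signals. The paper states that PGCs of cynomolgus monkeys and marmosets lie in the amnion before gastrulation. It cites a proposal that PGCs and amnion may come from shared progenitors that express TFAP2A. SOX17, TFAP2C (AP2γ) and PRDM1 (BLIMP1) are the core regulators of the PGC fate, which keeps part of the pluripotency network. Other cells that receive the same signals become mesoderm, endoderm or amnion.

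Levels below are the deposited normalised read counts, given as replicate 1 and replicate 2. A library held 14055654 and 8193936 reads on genes in pre-ME and 12734332 and 7504206 in the cjPGCLCs. Of 25102 genes, 15797 passed the filter on low counts. With a fold of more than 2 on the log2 scale and an adjusted p below 0.05, thresholds that the study also used, 971 genes (6.15% of those tested) rose and 350 (2.22%) fell; the words rose and fell are kept for such genes. With the adjusted p alone, 4001 genes (25.3%) were higher and 3637 (23.0%) lower. Counts of list members at an unadjusted p under 0.05 are also given below. In this comparison the shares above are the least that all genes reach at that looser cut. For the other comparisons the share of all genes at that cut is not given, so those counts are descriptions only. The median log2 fold change of all tested genes was 0.04. Of the 1321 genes called (8.36%), the libraries of the groups did not overlap for 1314, against 80.8% of all tested genes. In 300 of the genes that rose both pre-ME libraries held 3 counts or fewer, and in 91 of those that fell both cjPGCLC libraries did; for these, folds are given as lower bounds against 3 counts in each library. The plot of change against level shows both groups of genes across the whole range of expression. When the fold itself was tested against the threshold (glmTreat), 306 genes passed upward and 55 downward; SOX17, described next, did not pass that stricter test.

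**Figure D1:**
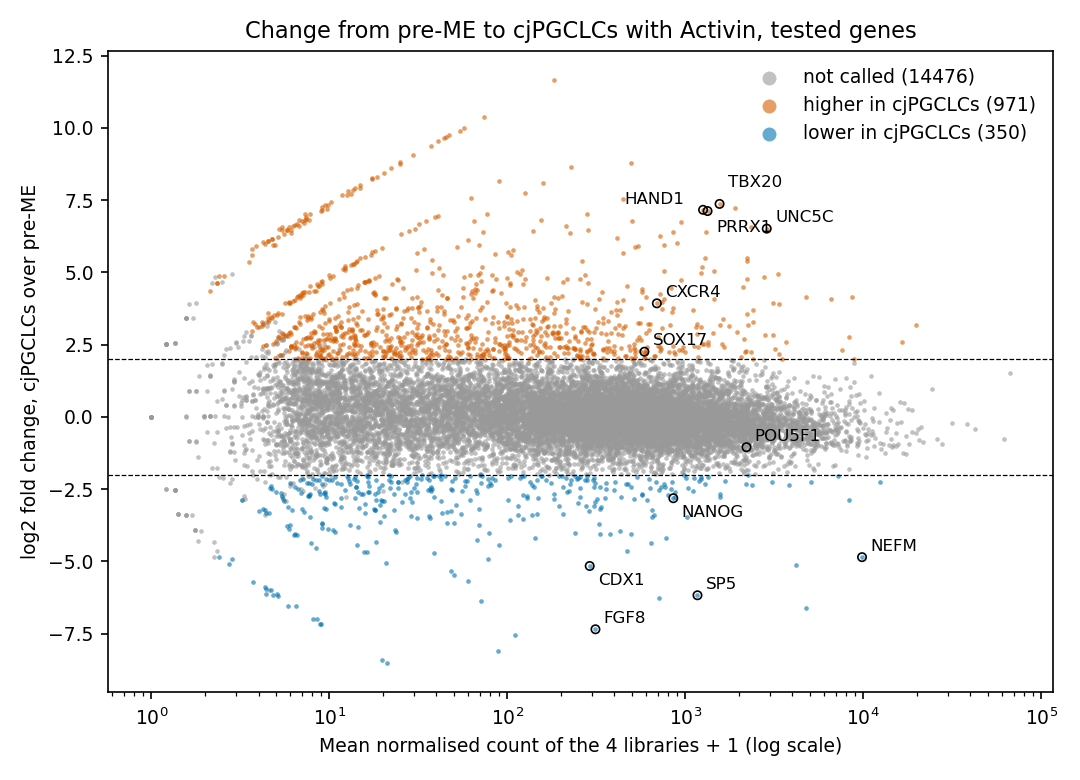
Each point is 1 of the 15797 genes tested, with the mean normalised count of the 4 libraries plus 1 on a log axis (x) and the log2 fold change of cjPGCLCs over pre-ME (y). Orange points (971) rose, blue points (350) fell, grey points were not called, dashed lines mark a log2 fold change of 2 either way, and circles mark named genes. The mesoderm regulators TBX20, HAND1 and PRRX1 stand at the top among well-expressed genes, FGF8 and SP5 at the bottom, and SOX17 lies just above the upper line.

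The sort markers gave an uneven picture. CXCR4, the chemokine receptor that guides migrating germ cells, was at 82.6 and 88.5 in pre-ME against 1317 and 1275 in the cjPGCLCs (log2 fold change 3.93 ± 0.28 (SE), adjusted p = 3.08e-08). The groups were far apart, and the somatic cells, at 76.1 and 58.1, lay near pre-ME. ITGA6, the integrin INTα6, was at 1259 and 1715 in pre-ME against 2277 and 1206 in the cjPGCLCs, and the groups overlapped (log2 fold change 0.24, adjusted p = 0.449); the value was -0.30 without cjPGCLC replicate 1. EPCAM, an epithelial adhesion molecule, was at 391 and 315 in pre-ME against 1204 and 472 in the cjPGCLCs (log2 fold change 1.26 ± 0.35 (SE), adjusted p = 0.0067), higher at the adjusted p alone; without pre-ME replicate 2 or cjPGCLC replicate 1 the adjusted p was 0.0614 and 0.342. All 3 were higher in the cjPGCLCs than in the somatic cells, by log2 4.29, 3.27 and 2.47; without cjPGCLC replicate 1 the value for EPCAM was 1.63, below the fold threshold. A gene used to sort the cells is no finding between sorted fractions. Against pre-ME, which was not sorted, selection by the gate and a change in expression cannot be told apart for such a gene.

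The label was checked against 7 PGC markers, SOX17, TFAP2C, PRDM1, NANOS3, DPPA3, POU5F1 and NANOG, each of which had more than 3 counts in both cjPGCLC libraries. From pre-ME, SOX17 and NANOS3 rose, NANOG fell, and the other 4 passed neither way. SOX17 was at 219 and 187 in pre-ME against 913 and 1034 in the cjPGCLCs, with no overlap (log2 fold change 2.25 ± 0.46 (SE), adjusted p = 0.000729). NANOS3, an RNA-binding protein restricted to germ cells, was at 6.68 and 5.62 in pre-ME against 42.3 and 14.2 in the cjPGCLCs, a low level throughout (log2 fold change 2.23, adjusted p = 0.00945). This call rested on few counts: without pre-ME replicate 1, pre-ME replicate 2 or cjPGCLC replicate 1 the adjusted p was 0.0654, 0.0545 and 0.287, and the log2 fold change without the last was 1.17. TFAP2C was at 63.4 and 78.6 in pre-ME against 113 and 114 in the cjPGCLCs (log2 fold change 0.69, adjusted p = 0.204), its groups apart but near each other. PRDM1 was at 295 and 209 in pre-ME against 221 and 196 in the cjPGCLCs, with overlapping groups (log2 fold change -0.28, adjusted p = 0.325). DPPA3 (STELLA) was at 16.7 and 30.9 in pre-ME against 49.9 and 32.7 in the cjPGCLCs, its groups just apart, and did not pass (log2 fold change 0.87, adjusted p = 0.186).

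Set against the somatic cells, 4 of these 7 markers were higher at both thresholds. Of the 15797 genes, 223 (1.41%) were higher in the cjPGCLCs than in the somatic cells at both thresholds and 26 (0.165%) lower. SOX17 was at 143 and 219 in the somatic cells (log2 difference 2.42 ± 0.47, adjusted p = 0.00569), and TFAP2C at 28.3 and 25.3 (2.09 ± 0.51, adjusted p = 0.023). NANOS3 and DPPA3 were at 3.54 and 1.49 and at 5.31 and 0 there, 3 counts or fewer in each library, so that their fitted differences of 3.55 and 4.05 (adjusted p = 0.0211 and 0.00792) are imprecise. PRDM1 was at 86.8 and 93.9, a difference of 1.22 (adjusted p = 0.00923). The calls of the first 4 depended on single libraries: the largest adjusted p without 1 library was 0.0952 for SOX17 (without somatic replicate 1), 0.229 for TFAP2C (without somatic replicate 2), 0.416 for NANOS3 (without cjPGCLC replicate 1) and 0.156 for DPPA3 (without somatic replicate 2). POU5F1 and NANOG differed from the somatic cells by 0.24 and 0.24 (adjusted p = 0.589 and 0.822). Relative to pre-ME, 2 of the 7 markers rose, and markers of other lineages rose by larger folds.

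Of the list of 20 early PGC genes, 19 were in the table and 17 were tested; 2 rose and 4 fell, with a median log2 fold change of -0.28 (0.0 with the members at or under 3 counts in a group set to their bound). Apart from SOX17 and NANOS3, KIT, the receptor of SCF, was at 339.6 and 275 in pre-ME against 817 and 914 in the cjPGCLCs (log2 fold change 1.49 ± 0.22 (SE), adjusted p = 5.46e-05). KLF4, a naive pluripotency factor that primate PGCs express, was at 100.1 and 80.1 in pre-ME against 229.9 and 243 in the cjPGCLCs (log2 fold change 1.38 ± 0.28 (SE), adjusted p = 0.000625). In both the groups were apart and the fold lay below the threshold. PDPN, a surface glycoprotein used to sort human PGCs, fell from 449 and 439.6 to 58.3 and 52.6 (log2 fold change -2.99 ± 0.295 (SE), adjusted p = 8.1e-07). NR5A2, a nuclear receptor, fell from 45.1 and 49.2 to 3.38 and 11.4 (log2 fold change -2.81, adjusted p = 0.000148). PRDM14, a repressor of somatic genes, fell at least 4.35-fold from 18.4 and 11.2, and UTF1 from 96.8 and 99.7 to 21.97 and 25.6. Neither of these last calls held without cjPGCLC replicate 1 (log2 fold change -2.39 with adjusted p = 0.247, and -1.94), and 1 gene of the list then rose and 2 fell. The call of PRDM14 was also lost without cjPGCLC replicate 2 and without pre-ME replicate 1 (adjusted p = 0.0717 and 0.195), and with an adjusted p of 0.0502 without replicate 1 of pre-ME made with no ActA. Only 1 gene of the list rose without pre-ME replicate 1 of the ActA condition. TFCP2L1 and DPPA5 did not pass the filter, and TCL1A was not analysed here. Of 23 later germ cell genes in the table, 8 were tested and none rose or fell in edgeR or DESeq2; at an unadjusted p under 0.05, 1 was higher and 2 were lower. DAZL and DDX4, the usual markers of gonadal germ cells, were at 3 counts or fewer in all 4 libraries.

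**Figure D2:**
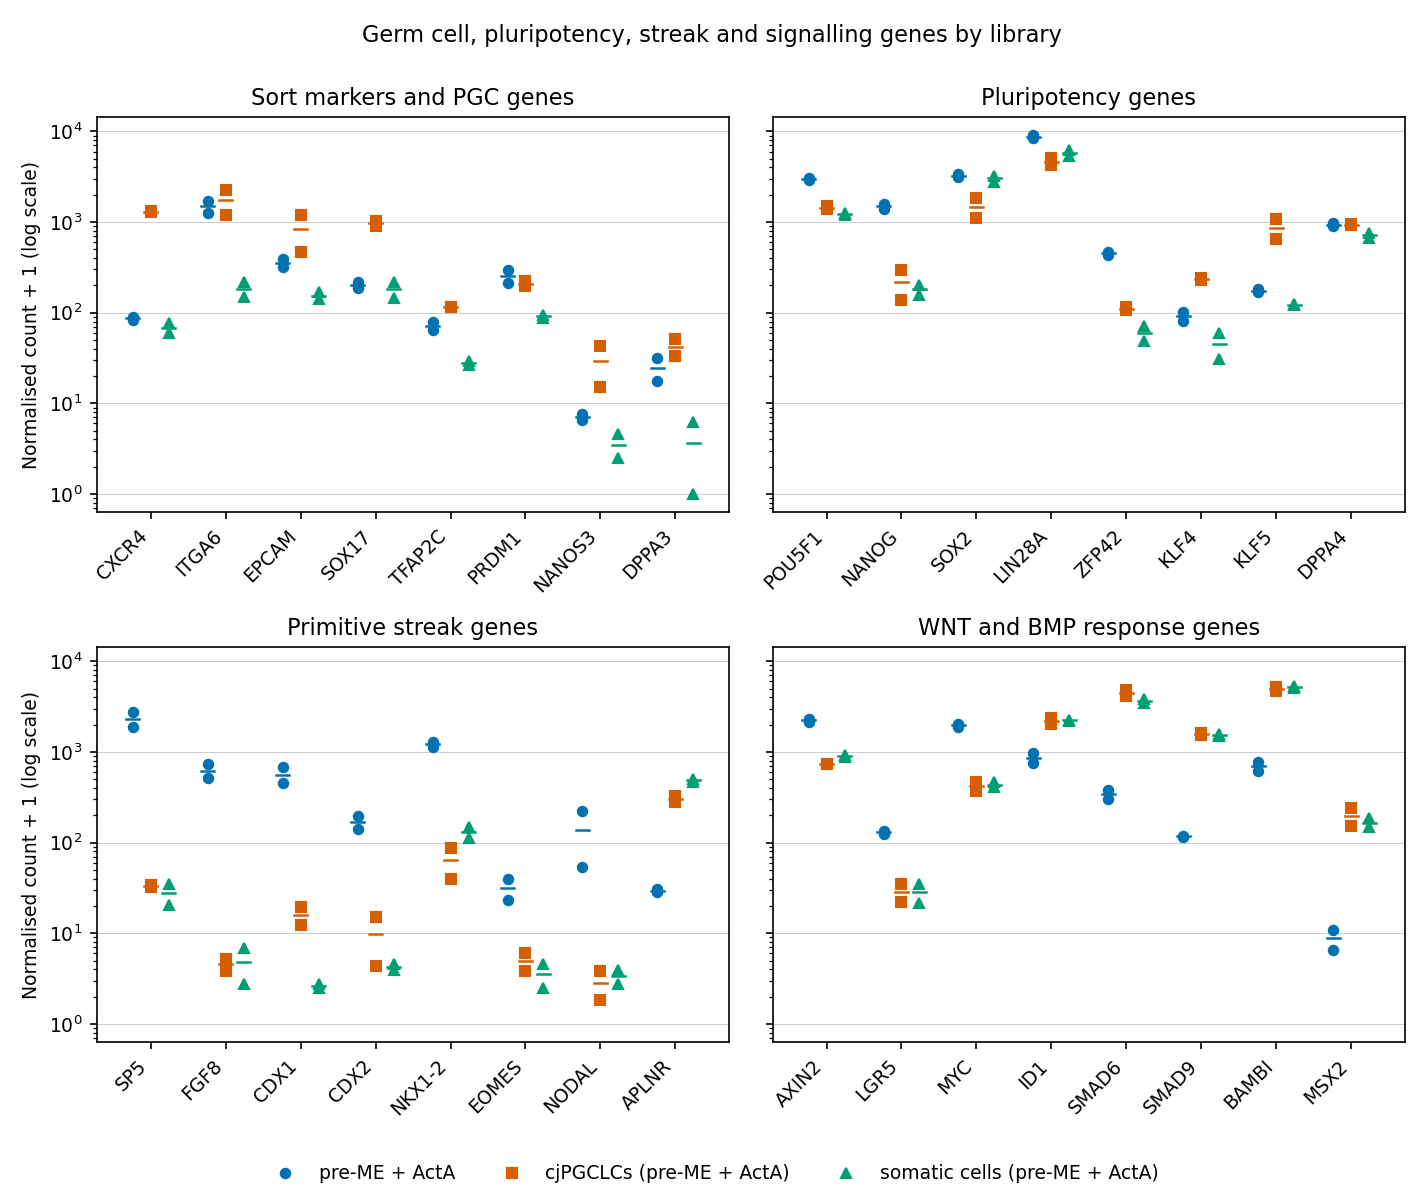
Normalised counts plus 1 on a log axis (y) for the named genes (x), with 1 point per library: circles for pre-ME with ActA, squares for cjPGCLCs and triangles for somatic cells, 2 of each; short lines are group means. SOX17 stands high in the cjPGCLCs alone, and so does CXCR4, which some of the sources name as a sort marker. NANOG, ZFP42 and the streak genes other than APLNR, which rose, are highest in pre-ME. The BMP targets SMAD6, SMAD9, BAMBI and MSX2 are high in both fractions of the embryoid bodies.

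The pluripotency network shifted downward without being lost. Of 25 listed genes 22 were tested, and 2 rose and 7 fell (median log2 fold change -0.92). Their summed level was 35420 and 35413 in pre-ME, 21255 and 26487 in the cjPGCLCs, and 41257 and 43676 in the somatic cells. The sum was thus lower in the cjPGCLCs than in the somatic cells. Gene by gene, 2 were higher in the cjPGCLCs than in the somatic cells at both thresholds and none lower. NANOG was at 1406 and 1581 in pre-ME against 136 and 297 in the cjPGCLCs (log2 fold change -2.81 ± 0.29 (SE), adjusted p = 1.06e-06), far below pre-ME in both libraries. POU5F1 (OCT4) was at 2915 and 3035 in pre-ME against 1380.2 and 1490.1 in the cjPGCLCs (log2 fold change -1.05 ± 0.17 (SE), adjusted p = 9.92e-05). SOX2 was at 3378 and 3121 in pre-ME against 1094 and 1838 in the cjPGCLCs (log2 fold change -1.15 ± 0.25 (SE), adjusted p = 0.00132). Both were lower at the adjusted p with a fold short of the threshold. LIN28A, an RNA-binding protein of early embryonic cells, was at 9025 and 8511 in pre-ME against 4211 and 5057 in the cjPGCLCs (log2 fold change -0.92). Genes that fell further were ZFP42 (REX1), from 432 and 469 to 113 and 105 (log2 -2.03), and the TGF-beta family ligand GDF3, from 60.9 and 71.6 to 9.297 and 9.95 (log2 -2.77). The transcription factors SOX3 and ZIC2 fell as well (log2 -3.44 and -2.68, adjusted p = 0.000254 and 0.00212). The surface protein THY1 lay on the threshold, at 3343 and 3838 in pre-ME against 856 and 933 in the cjPGCLCs (log2 -2.002). Its value was -1.92 without pre-ME replicate 2 and -1.945 without cjPGCLC replicate 1, and it also lost the call without replicate 1 of the cjPGCLCs made with no ActA. ZFP42 was at -1.996 without pre-ME replicate 2 and -1.99 without cjPGCLC replicate 2.

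In the other direction, KLF5 rose from 167 and 183 to 1086 and 653 (log2 fold change 2.33 ± 0.34 (SE), adjusted p = 4.06e-05). FGF2 rose from 11.7 and 7.02 to 55.8 and 104 (log2 fold change 2.99 ± 0.49 (SE), adjusted p = 0.000111). KLF5, a Krüppel-like factor of naive and trophectodermal cells, was also higher than in the somatic cells, which had 120.4 and 124 (log2 difference 2.85, adjusted p = 0.000178). Without cjPGCLC replicate 1 its change from pre-ME was 1.90, below the threshold, and 1 member of the list then rose. FGF2 did not pass against the somatic cells (74.4 and 71.6, adjusted p = 0.95). OTX2, a homeobox factor of formative pluripotency, was at 119 and 198 in pre-ME against 430.2 and 407 in the cjPGCLCs (log2 fold change 1.42, adjusted p = 0.0133).

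Primitive streak genes had the lowest median of the 22 lists. The table held 22 of them, of which 20 were tested, and 9 fell and 2 rose (median log2 fold change -2.14, or -1.49 with members at or under 3 counts in a group set to their bound). FGF8, a ligand of the gastrulating streak, was at 730.1 and 509.8 in pre-ME against 4.23 and 2.84 in the cjPGCLCs (log2 fold change -7.35 ± 0.46 (SE), adjusted p = 6.84e-09). SP5, a direct WNT target, was at 2743 and 1871 in pre-ME against 31.3 and 32.7 in the cjPGCLCs (log2 fold change -6.17 ± 0.27 (SE), adjusted p = 1.08e-10). Both were among the 15 genes that fell furthest, and in neither did the libraries come near each other. The caudal factors CDX1 and CDX2 fell from 678 and 449 to 18.6 and 11.4 and from 197 and 139 to 3.38 and 14.2 (log2 fold change -5.16 and -4.44, adjusted p = 4.26e-09 and 8.38e-07). NKX1-2, a factor of the caudal epiblast, fell from 1303 and 1142 to 38.9 and 86.7 (log2 -4.36). EOMES, which acts upstream of SOX17 in human PGC induction, was low in pre-ME and fell from 39.2 and 22.5 to 5.07 and 2.84 (log2 fold change -2.89 ± 0.68 (SE), adjusted p = 0.00235).

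Others of the list were near the floor from the start. MIXL1 was at 19.2 and 11.2 in pre-ME against 4.23 and 8.53 in the cjPGCLCs (log2 fold change -1.39, adjusted p = 0.0356). TBXT (brachyury) and MSGN1 held 3 counts or fewer in all 4 libraries, so that TBXT, the defining streak marker, was not detectable above that floor in pre-ME. The 2 members that rose were APLNR, the apelin receptor of early mesoderm, from 27.5 and 29.5 to 278 and 327 (log2 fold change 3.41 ± 0.37 (SE), adjusted p = 2.03e-06), and the ligand gene WNT3. WNT3 went from 10.8 and 9.83 to 63.4 and 72.5 (log2 fold change 2.69 ± 0.39 (SE), adjusted p = 3.67e-05). LHX1 was at 139 and 29.5 in pre-ME against 6.76 and 12.8 in the cjPGCLCs, and CYP26A1, which degrades retinoic acid, at 118 and 29.5 in pre-ME against 15.2 and 2.84 in the cjPGCLCs. In both, pre-ME replicate 1 stood far above replicate 2, and without it the log2 fold changes were -1.67 and -1.52 (adjusted p = 0.351 and 0.208), from -3.25 and -2.896. Without cjPGCLC replicate 1 the adjusted p of LHX1 was 0.134. The remaining gene that fell, WNT8A, went from 10.8 and 9.83 to 0.845 and 0, at least 3.04-fold. It passed with all 4 libraries but had an adjusted p of 0.0544, 0.0539 and 0.0563 without pre-ME replicate 1, cjPGCLC replicate 1 and cjPGCLC replicate 2.

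In the NODAL and Activin pathway, with 13 genes tested, 2 fell and 1 rose. NODAL was at 224 and 53.4 in pre-ME and at 0.845 and 2.84, 3 counts or fewer, in the cjPGCLCs, a fall of at least 40.7-fold (adjusted p = 3.46e-05). Both pre-ME libraries stood far above the cjPGCLCs but differed from each other. GDF3 was the other gene that fell. INHBA, which encodes the subunit of ActA itself, rose from 32.5 and 33.7 to 182 and 136 (log2 fold change 2.27 ± 0.41 (SE), adjusted p = 0.000271). FOXH1, the partner of SMAD2 at NODAL targets, was at 426 and 428 in pre-ME against 216 and 242 in the cjPGCLCs (log2 -0.902, adjusted p = 0.0002). The receptor ACVR2A was at 259 and 243 in pre-ME against 759.8 and 665 in the cjPGCLCs (log2 1.51, adjusted p = 6.97e-05). PMEPA1, a feedback inhibitor induced by TGF-beta signalling, was at 512 and 531 in pre-ME against 219.7 and 235 in the cjPGCLCs (log2 -1.197, adjusted p = 0.00798).

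WNT feedback genes, of which 17 were tested, fell in 4 cases and rose in 1 (median log2 fold change -1.02). Besides SP5, the stem cell receptor LGR5 fell from 134 and 125 to 21.1 and 34.1 (log2 -2.27) and MYC from 2029 and 1903 to 469 and 373 (log2 fold change -2.21 ± 0.29 (SE), adjusted p = 1.42e-05). RNF43, which removes WNT receptors from the surface, fell from 12.5 and 25.3 to 4.23 and 4.27 (log2 -2.04). Without cjPGCLC replicate 1, LGR5 was at -1.92 and RNF43 had an adjusted p of 0.11, which left 2 members that fell. RNF43 was also lost without pre-ME replicate 2 and without cjPGCLC replicate 2 (adjusted p = 0.124 and 0.0591). AXIN2, the most general WNT target, was at 2316 and 2149 in pre-ME against 745 and 732 in the cjPGCLCs (log2 fold change -1.59 ± 0.14 (SE), adjusted p = 2.03e-07), lower in both libraries with a fold below the threshold. TNFRSF19 (TROY) rose from 1040.5 and 1056 to 5048 and 5579 (log2 fold change 2.34 ± 0.24 (SE), adjusted p = 1.05e-06).

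Most BMP response genes were higher in the cjPGCLCs. All 18 listed genes were tested; 9 rose, none fell in edgeR or DESeq2, and 16 were higher and 1, BMP4, was lower at the adjusted p alone, as at an unadjusted p under 0.05 (median log2 fold change 1.94). SMAD6, an inhibitory SMAD induced by BMP, was at 381 and 305 in pre-ME against 4786 and 4184 in the cjPGCLCs (log2 fold change 3.704 ± 0.26 (SE), adjusted p = 2.18e-08). SMAD9 was at 115 and 118 in pre-ME against 1612 and 1554 in the cjPGCLCs (log2 fold change 3.77 ± 0.197 (SE), adjusted p = 8.97e-10). BAMBI, a decoy receptor, was at 617 and 772 in pre-ME against 5150.5 and 4728 in the cjPGCLCs (log2 fold change 2.84 ± 0.29 (SE), adjusted p = 1.24e-06). In these 3 genes the replicates lay close together and the groups far apart. The homeobox gene MSX2 rose from 10.01 and 5.62 to 152 and 243 (log2 4.56) and MSX1 from 632 and 395 to 2635 and 2912 (log2 2.43). The extracellular BMP regulator BMPER rose from 7.51 and 4.21 to 82.8 and 76.8 (log2 3.67). ID1 to ID4, the immediate targets of SMAD1 and SMAD5, were higher with folds short of the threshold: log2 1.36, 1.82, 1.24 and 1.65 (adjusted p = 0.000296, 1.73e-06, 0.000105 and 0.00144). The ligand gene BMP4, whose product was in the medium, was at 712 and 681 in pre-ME against 213 and 253 in the cjPGCLCs (log2 -1.58, adjusted p = 0.00216). None of the 18 genes passed against the somatic cells at both thresholds in edgeR or DESeq2, while at an unadjusted p under 0.05, 1 was higher in the cjPGCLCs and 3 were lower. The gene that was higher was GATA2 (log2 difference 1.37, adjusted p = 0.00102).

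The cytokines added for PGC induction act through receptors that were measured as well. Of 20 genes of LIF, SCF and EGF signalling, 3 rose and none fell in edgeR or DESeq2; 12 were higher and 4 lower at the adjusted p alone, and 5 lower at an unadjusted p under 0.05. LIFR, the LIF receptor, was at 91.8 and 117 in pre-ME against 1781 and 969.7 in the cjPGCLCs (log2 fold change 3.75 ± 0.28 (SE), adjusted p = 5.3e-08). Its partner IL6ST (gp130) was at 531 and 626 in pre-ME against 4490.4 and 2898 in the cjPGCLCs (log2 fold change 2.68 ± 0.199 (SE), adjusted p = 4.62e-08). EGFR was at 63.4 and 39.3 in pre-ME against 368 and 329.9 in the cjPGCLCs (log2 fold change 2.72 ± 0.21 (SE), adjusted p = 6.21e-08), and higher still in the somatic cells (719 and 654). The groups did not overlap in any of the 3 receptors. SOCS3, the feedback target of STAT3, was at 372 and 294 in pre-ME against 1236 and 903 in the cjPGCLCs (log2 1.68, adjusted p = 0.00012). The FGF and ERK targets SPRY4 and ETV4 went from 1116 and 886 to 437 and 424 and from 676 and 492 to 227 and 146 (log2 -1.22 and -1.63, adjusted p = 0.00011 and 3.96e-05), both lower at the adjusted p alone.

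Mesoderm and mesenchyme markers had the highest median of the lists. Of 20 genes 19 were tested; 11 rose in edgeR and 10 in DESeq2, and none fell in either, with 2 lower at an unadjusted p under 0.05 (median log2 fold change 4.08, or 3.63 with members under the floor in a group set to their bound). HAND1, a factor of lateral and extraembryonic mesoderm, was at 16.7 and 18.3 in pre-ME against 2135 and 2858 in the cjPGCLCs (log2 fold change 7.16 ± 0.34 (SE), adjusted p = 2.77e-10). TBX20, a factor of cardiac mesoderm, was at 13.4 and 26.7 in pre-ME against 3760.2 and 2424 in the cjPGCLCs (log2 fold change 7.37 ± 0.401 (SE), adjusted p = 1.36e-09). PDGFRA, the receptor that marks early mesoderm, was at 46.7 and 51.96 in pre-ME against 5562 and 3659.8 in the cjPGCLCs (log2 fold change 6.56 ± 0.35 (SE), adjusted p = 1.02e-09). In each of these the pre-ME and cjPGCLC libraries were far apart. Mesenchymal regulators were among the genes that rose. PRRX1 went from 17.5 and 21.1 to 2628 and 2663 (log2 7.12). TWIST1 went from 97.6 and 46.3 to 2394 and 2347 and SNAI2 from 83.4 and 87.1 to 1438 and 1430.4 (log2 4.98 and 4.08). HAND2 and the matrix genes POSTN, COL3A1 and LUM rose by log2 6.78, 5.51, 5.41 and 3.18 (adjusted p = 4.06e-07, 1.94e-08, 1.29e-06 and 4.66e-07). MEOX1 also passed the test, but with 3 counts or fewer in all 4 libraries, so no fold is given. FOXF1, a factor of splanchnic mesoderm, stayed near the floor (0.834 and 0 in pre-ME against 3.38 and 0 in the cjPGCLCs).

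None of the 19 genes passed between the cjPGCLCs and the somatic cells in edgeR or DESeq2; at an unadjusted p under 0.05, 2 were higher and 5 lower in the cjPGCLCs. In the somatic cells HAND1 was at 3934 and 3497, TBX20 at 3646 and 3090.4 and PDGFRA at 4303 and 3481 (log2 difference -0.57 ± 0.22, -0.11 ± 0.27 and 0.26 ± 0.25, adjusted p = 0.195, 0.917 and 0.747). Summed over the 20 genes, the level was 51166 and 56838 in pre-ME, 72439 and 59447 in the cjPGCLCs and 79461 and 60802 in the somatic cells, most of it VIM, at 39189 and 33234 in the cjPGCLCs. Whether the cells of the gate transcribed these genes themselves or the sorted fraction held other cells was not tested, and in bulk libraries fewer cells of a type and less RNA per cell cannot be told apart.

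**Figure D3:**
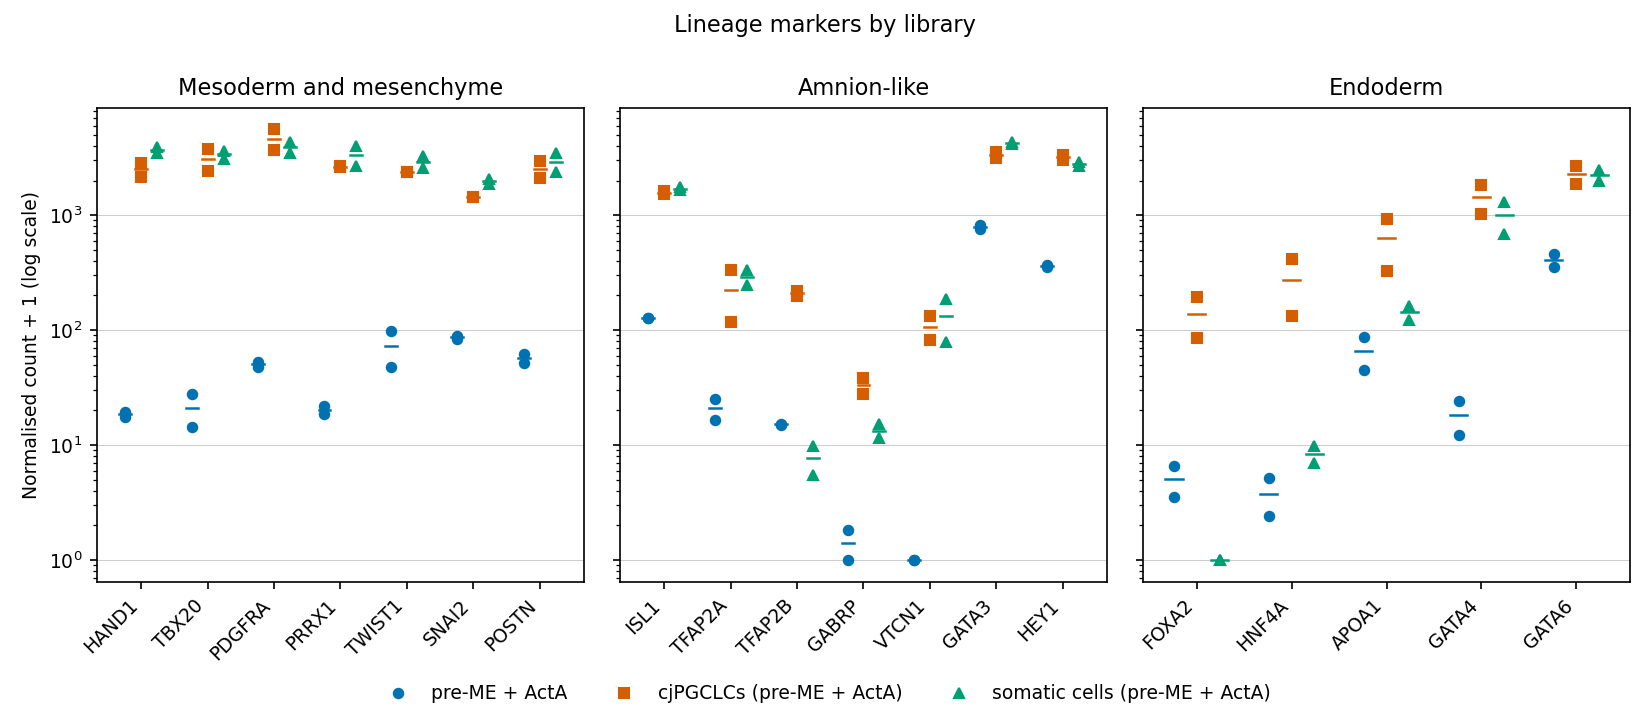
Normalised counts plus 1 on a log axis (y) for markers of 3 lineages (x), with 1 point per library: circles for pre-ME with ActA, squares for cjPGCLCs and triangles for somatic cells, 2 of each; short lines are group means. Mesoderm genes overlap or nearly overlap between cjPGCLCs and somatic cells, whereas both cjPGCLC libraries of TFAP2B, FOXA2, HNF4A and APOA1 lie above those of the other groups.

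Amnion-like markers followed the same course. Of 13 genes tested, 10 rose and none fell in edgeR or DESeq2, with 1, BMP4, lower at an unadjusted p under 0.05 (median log2 fold change 3.40, or 3.26 with genes under the floor set to their bound); 4 of the genes that rose, MSX2, GATA3, TFAP2A and DLX5, are also on the BMP list. GATA3 was at 1.97, short of the threshold, without cjPGCLC replicate 2. ISL1, a LIM-homeobox factor of amnion and of cardiac progenitors, was at 126 and 126 in pre-ME against 1512 and 1608 in the cjPGCLCs (log2 fold change 3.63 ± 0.19 (SE), adjusted p = 1.02e-09). VTCN1 and GABRP, surface markers of amnion and trophoblast, had 3 counts or fewer in both pre-ME libraries and 80.3 and 132 and 37.2 and 27.01 in the cjPGCLCs, at least 31.6-fold and 9.56-fold higher (adjusted p = 2.22e-05 and 0.000102). TFAP2A, the AP2 paralogue of surface ectoderm and amnion, was at 24.2 and 15.4 in pre-ME against 116 and 329.9 in the cjPGCLCs (log2 fold change 3.396 ± 0.48 (SE), adjusted p = 2.99e-05), with replicate 2 of the cjPGCLCs above replicate 1. The paper counts TFAP2A and GATA3 among the PGC-associated genes expressed in human and marmoset PGC-like cells. For the marmoset cells, that statement came from cjPGCLC libraries of this series. Which cells carried the rise of TFAP2A and GATA3 was not tested. TFAP2B alone of the list was higher in the cjPGCLCs than in the somatic cells at both thresholds: 14.2 and 14.04 in pre-ME against 219 and 198 in the cjPGCLCs against 8.85 and 4.47 in the somatic cells (log2 difference 4.99 ± 0.71, adjusted p = 0.000451).

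Several endoderm markers were higher in the cjPGCLCs than in both other groups. Of 12 genes 9 were tested; 6 rose and none fell in edgeR or DESeq2, with 1, HHEX, lower at an unadjusted p under 0.05 (median log2 fold change 3.24). FOXA2, a pioneer factor of definitive endoderm, was at 2.503 and 5.62 in pre-ME against 192 and 83.9 in the cjPGCLCs (log2 fold change 5.199 ± 0.59 (SE), adjusted p = 4.76e-06), and no read of it was counted in either somatic library. HNF4A was at 4.17 and 1.404 in pre-ME against 418 and 131 in the cjPGCLCs (log2 fold change 6.43 ± 0.78 (SE), adjusted p = 6.17e-06) against 8.85 and 5.96 in the somatic cells. Both were thus well above the other groups in both libraries (log2 difference from the somatic cells 5.24 for HNF4A, adjusted p = 0.000377; for FOXA2 the adjusted p was 6.48e-05). APOA1, an apolipoprotein of liver and yolk sac, rose from 85.9 and 43.5 to 929 and 324 (log2 3.24). Its difference from the somatic cells, 2.15 (adjusted p = 0.0125), lost the call without somatic replicate 1, somatic replicate 2 or cjPGCLC replicate 1 (adjusted p = 0.14, 0.101 and 0.374; log2 1.19 without the last). GATA4 and GATA6, factors of both endoderm and cardiac mesoderm, rose by log2 6.26 and 2.49 and did not pass against the somatic cells (adjusted p = 0.519 and 0.968). FOXA1, TTR and AFP had 0 counts in both pre-ME libraries and stood at 4.23 and 0, 4.23 and 0 and 4.23 and 1.42 in the cjPGCLCs.

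SOX17 is a marker of endoderm as well as of primate PGCs, so these values stand beside its rise. Summed over the 12 endoderm genes, the level was 1004 and 885 in pre-ME, 6877 and 4109 in the cjPGCLCs, and 4265 and 3315 in the somatic cells, so that the fractions of the embryoid bodies overlapped. FOXA2, HNF4A and APOA1 made up a small part of the cjPGCLC sums. The starting stem cells in cjPSCM, not otherwise compared here, stood at 4438 and 3300, so the sum is no measure of endoderm alone. Replicate 1 of the cjPGCLCs held more of FOXA2, HNF4A, APOA1, NANOS3 and EPCAM than replicate 2, and less SOX17. It also held more DPPA3, ITGA6, KLF5, LIFR and TBX20, and less NANOG, SOX2 and TFAP2A, while TFAP2C was nearly equal. Of all tested genes, 51.3% were higher in replicate 1 than in replicate 2. Whether the named genes vary together was not tested. The paper stained sections of unsorted embryoid bodies. On day 4, with ActA, it found SOX17 protein together with that of TFAP2C, PRDM1 and NANOG in a minority of cells. At a later day it saw FOXA2 protein in few cells, which it describes as positive for SOX17 singly. The part of endoderm-like cells in the SOX17 signal of the sorted libraries was not tested. Among the other lineages, 8 neural genes were tested and 1, ZIC1, fell (log2 -2.51); PAX6 was at 7.51 and 7.02 in pre-ME against 0.845 and 7.11 in the cjPGCLCs and SOX1 at the floor in all 4 libraries. Of 7 blood and endothelial genes, RUNX1 fell from 669 and 567 to 86.2 and 91.00 (log2 fold change -2.804 ± 0.32 (SE), adjusted p = 3.31e-06) and none rose in edgeR or DESeq2, with 1 higher at an unadjusted p under 0.05; CDH5 and TAL1 were present at 1116 and 955 in pre-ME against 995 and 899 in the cjPGCLCs and at 1237 and 1463 in pre-ME against 762 and 1041 in the cjPGCLCs, without a call.

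**Figure D4:**
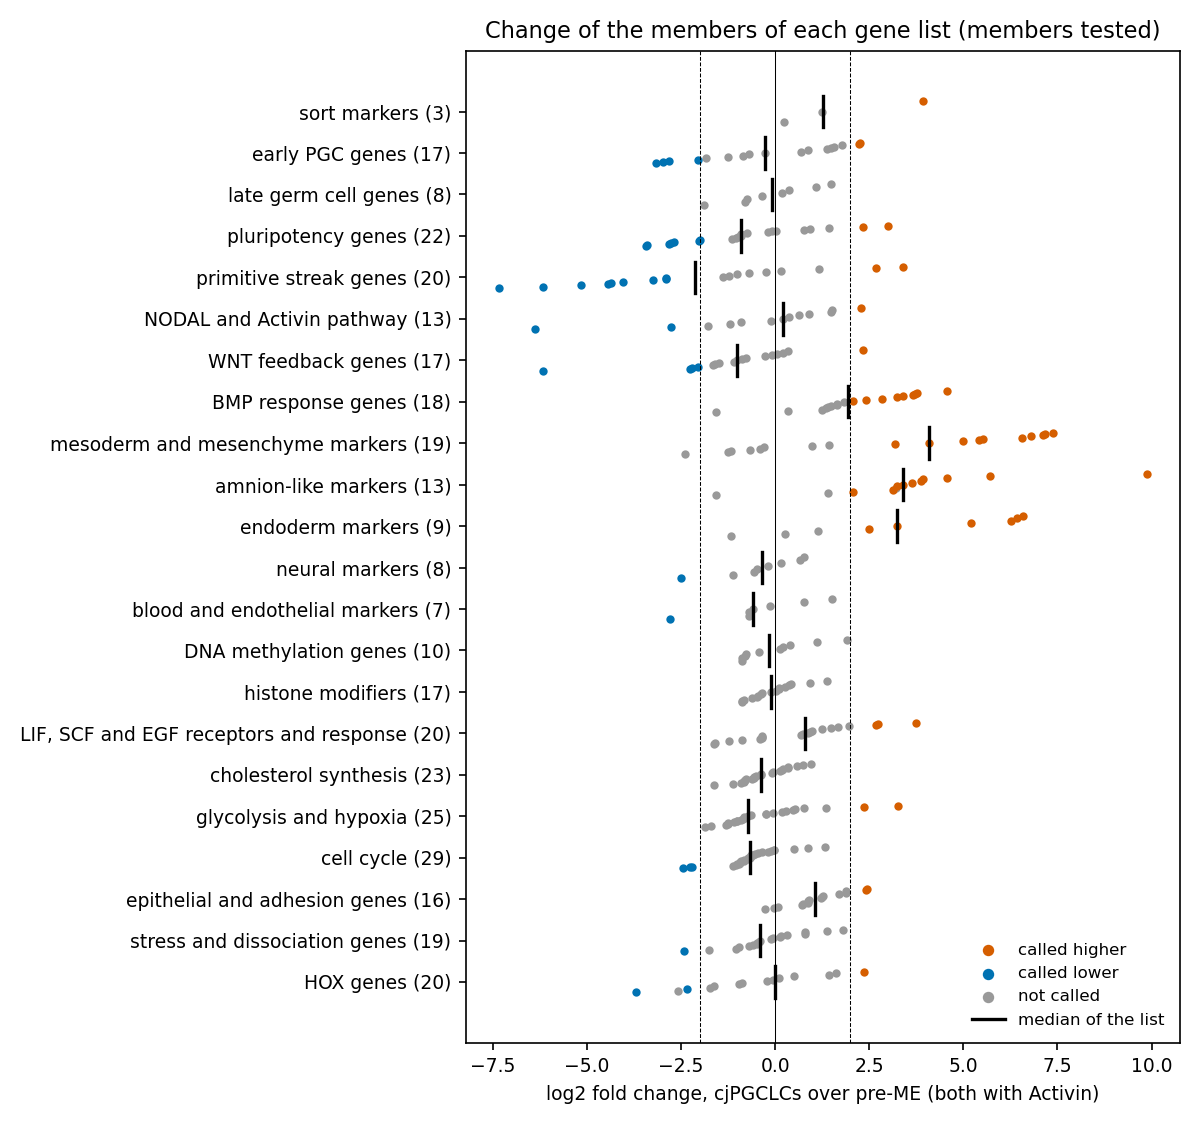
Each point is the log2 fold change (x) of 1 tested member of the gene list named on the y axis, with the number tested in brackets; orange and blue points rose and fell, grey points were not called, and black bars are the fitted medians of all tested members. Members with 3 counts or fewer in all 4 libraries are not drawn. BMP response, mesoderm, amnion-like and endoderm lists lie to the right, the streak list to the left, and the chromatin and cholesterol lists near 0.

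Epigenetic reprogramming is a hallmark of PGC development, and its regulators were measured here on day 4. Of 10 DNA methylation genes and 17 histone modifiers tested, none rose or fell in edgeR or DESeq2. At an unadjusted p under 0.05, 3 and 4 of them were higher and 5 and 8 lower. Of all tested genes, 25.3% were higher and 23.0% lower at the stricter adjusted p alone. TET2 and TET1, which oxidise methylated cytosine, went from 172 and 192 to 769 and 600.0 and from 519.8 and 493 to 1031 and 1174 (log2 1.92 and 1.12, adjusted p = 5.46e-07 and 3.03e-05). The maintenance methyltransferase DNMT1 was at 3812 and 3234 in pre-ME against 1901 and 1952 in the cjPGCLCs (log2 -0.87, adjusted p = 0.000683) and its cofactor UHRF1 at 4329 and 3616 in pre-ME against 2236 and 2323 in the cjPGCLCs (log2 -0.799, adjusted p = 0.00366). The de novo enzyme DNMT3B was at 1558 and 1399 in pre-ME against 691 and 926 in the cjPGCLCs (log2 -0.87, adjusted p = 0.0283). In each of these 5 genes the groups were separate, with differences of less than 4-fold. Without cjPGCLC replicate 2 the value of TET2 was 2.08, past the threshold.

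Many proliferation and glycolysis genes were lower by less than 4-fold. Of 29 cell cycle genes, 3 fell, MYC, CDKN1A and CDKN2A, and none rose in edgeR or DESeq2; 19 were lower and 3 higher at the adjusted p alone, and 3 higher at an unadjusted p under 0.05 (median log2 fold change -0.68). The replication helicase subunit MCM4 was at 2568 and 2574 in pre-ME against 1283 and 1403 in the cjPGCLCs and the G1/S cyclin CCNE1 at 1176 and 1281 in pre-ME against 522 and 614 in the cjPGCLCs (log2 -0.93 and -1.11, adjusted p = 4.65e-06 and 2.5e-06). The inhibitors CDKN1A (p21) and CDKN2A fell from 782 and 899 and 1465 and 1337 to 169.9 and 136 and 286 and 296 (log2 -2.44 and -2.27). In glycolysis, 13 of 25 genes were lower and 4 higher at the adjusted p alone. GAPDH was at 22878 and 23948 in pre-ME against 9789 and 9897 in the cjPGCLCs and PKM at 15189 and 15648 in pre-ME against 7645 and 7514 in the cjPGCLCs (log2 -1.25 and -1.02, adjusted p = 1.9e-05 and 7.77e-05). The glucose transporter SLC2A1 was at 3648 and 2979 in pre-ME against 922 and 886 in the cjPGCLCs (log2 -1.87; -2.03 without pre-ME replicate 2, past the threshold). The 2 genes of that list that rose were VEGFA and ADM, secreted factors with hypoxia-responsive promoters: 263 and 208 in pre-ME against 982 and 1449 in the cjPGCLCs for VEGFA and 113 and 94.1 in pre-ME against 1216 and 786 in the cjPGCLCs for ADM (log2 2.36 and 3.26). None of 23 cholesterol synthesis genes rose or fell in edgeR or DESeq2; at an unadjusted p under 0.05, 11 were lower and 4 higher.

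Of 37 HOX genes, 20 held 3 counts or fewer in all 4 libraries. Of the 20 tested, 1 rose and 2 fell, beside 6.15% and 2.22% of all tested genes. HOXA2 fell from 158 and 107 to 18.6 and 35.5 (log2 -2.35; -1.91, adjusted p = 0.0508, without cjPGCLC replicate 1). HOXA13 rose from 161 and 176 to 1067 and 663 (log2 fold change 2.37 ± 0.31 (SE), adjusted p = 1.48e-05). Without cjPGCLC replicate 1 its log2 fold change was 1.98, short of the threshold, so that no HOX gene then rose. Without cjPGCLC replicate 2, 4 HOX genes fell. Of the stress and dissociation genes, 1 of 19 fell and none rose in edgeR or DESeq2, with 4 higher at an unadjusted p under 0.05. FOSB was at 699 and 416 in pre-ME against 149.6 and 51.2 in the cjPGCLCs (log2 -2.42; -1.99 without pre-ME replicate 1 and -1.91 without cjPGCLC replicate 2), whereas FOS was at 428 and 250.0 in pre-ME against 413 and 240.3 in the cjPGCLCs with overlapping groups. Among epithelial genes, KRT8 and CDH3 rose by log2 2.41 and 2.44 (1.89 for KRT8 without pre-ME replicate 2), and CDH1 was nearly absent (5.84 and 1.404 in pre-ME against 6.76 and 7.11 in the cjPGCLCs).

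The 15 genes that rose furthest, ranked by the lowest cjPGCLC library over the highest pre-ME library, were led by the sodium channel gene SCN11A. It went from 3 counts or fewer in both pre-ME libraries to 1184 and 785, at least 293-fold (adjusted p = 5.01e-09). PRRX1, HAND1, TBX20, PDGFRA and HAND2 were among the 15. SCIN, which encodes the actin-severing scinderin, was at 19.2 and 33.7 in pre-ME against 4217 and 3321 in the cjPGCLCs (log2 fold change 7.23 ± 0.69 (SE), adjusted p = 6.06e-07). ST6GAL2, a sialyltransferase, was at least 94.02-fold higher at 252 and 379.6. SCN11A, SCIN and ST6GAL2 were also higher than in the somatic cells (165 and 112, 95.6 and 49.2 and 8.85 and 8.94; log2 difference 2.85, 5.73 and 5.13). The secreted WNT agonist RSPO3 and the ligand BMP5 rose from 5.01 and 4.21 to 1296 and 475 and from 5.84 and 7.02 to 632 and 483 (log2 7.54 and 6.45). The netrin receptor UNC5C was at 51.7 and 75.8 in pre-ME against 5588 and 5748 in the cjPGCLCs (log2 6.51). The secreted protein CRISPLD2 was at 21.7 and 16.9 in pre-ME against 1659 and 1708 in the cjPGCLCs and SAMD11 at 30.04 and 30.9 in pre-ME against 2625 and 2544 in the cjPGCLCs (log2 6.41 and 6.41). The last of the 15 was PDK4, a brake on pyruvate oxidation (5.01 and 5.62 in pre-ME against 539 and 344 in the cjPGCLCs; log2 6.38).

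Of the 15 genes that fell furthest by the same ranking, FGF8, SP5 and CDX1 were streak genes. APLN, the ligand of the receptor APLNR that rose, was at 1373 and 1419.8 in pre-ME against 18.6 and 17.1 in the cjPGCLCs (log2 fold change -6.27 ± 0.51 (SE), adjusted p = 1.16e-07). The forkhead genes FOXB1 and FOXD1 fell from 211 and 139 to 0 and 1.42 and from 86.8 and 98.3 to 0.845 and 4.27, at least 51.5-fold and 27.2-fold lower. GBX2, a homeobox gene induced by WNT and FGF, fell from 1029 and 837 to 54.9 and 56.9 (log2 -4.06) and WNT7A from 147 and 84.3 to 0.845 and 4.27, at least 33.98-fold. NEFM, a neurofilament subunit, was at 21796 and 16221 in pre-ME against 521 and 798 in the cjPGCLCs (log2 fold change -4.85 ± 0.35 (SE), adjusted p = 2.98e-08). ANKRD1, a target of YAP that responds to mechanical load, was at 7832 and 8487 in pre-ME against 248 and 210.4 in the cjPGCLCs (log2 fold change -5.14 ± 0.502 (SE), adjusted p = 7.29e-07). FOSL1, an AP-1 subunit, was at 291 and 250.0 in pre-ME against 16.9 and 11.4 in the cjPGCLCs (log2 -4.199). The natriuretic peptide gene NPPB was at 123 and 68.8 in pre-ME against 3.38 and 0 in the cjPGCLCs and the organic anion transporter SLCO4A1 at 983 and 823 in pre-ME against 37.2 and 35.5 in the cjPGCLCs (log2 -5.47 and -4.62). The other two of the set encode channels, the serotonin receptor subunit HTR3A at 138 and 162 in pre-ME against 4.23 and 5.69 in the cjPGCLCs and the potassium channel KCNK10 at 123 and 129 in pre-ME against 5.07 and 8.53 in the cjPGCLCs (log2 -4.92 and -4.26). In none of the 30 genes did the libraries of the groups overlap, which the ranking required.

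The step from pre-ME to cjPGCLCs was also measured in 4 other libraries, made with no ActA. They came from the same cell line, started from a different pre-ME and were fitted in the same model, so they are not a fully independent repeat. There 912 genes rose (5.77%) and 333 fell (2.11%). Of the 971 genes that rose with ActA, 622 (64.1%) also rose without it, which is 68.2% of the 912; of the 350 that fell, 154 (44%) also fell, 46.2% of the 333. Opposite calls were made for 1 and 4 genes, and the sign was the same for 936 of the 971 and 311 of the 350. SOX17 changed by log2 3.22 without ActA, NANOS3 by 3.96, HAND1 by 8.57, FOXA2 by 6.07, SMAD6 by 5.06 and NANOG by -2.23, each in the direction seen with ActA.

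Whether the change itself differed between the conditions was tested as an interaction. It passed at an adjusted p under 0.05 for 707 genes (4.48%): in 274 (1.73%) the change was more positive with ActA and in 433 (2.74%) more negative. Among the 1321 genes called with ActA, 136 passed. ADRA1B, an adrenergic receptor, had a large difference: it was at 1333 and 1029 in pre-ME against 97.2 and 119 in the cjPGCLCs with ActA, and at 20.04 and 14.9 in pre-ME and 96.4 and 104 in the cjPGCLCs without it (difference of log2 changes -5.92 ± 0.38 (SE), adjusted p = 5.01e-07). The cjPGCLC levels lay near each other and the pre-ME levels far apart. NOTUM, a secreted WNT inhibitor, was at 549 and 379 in pre-ME against 519 and 566 in the cjPGCLCs with ActA, and went from 105 and 92.1 to 859.7 and 797 without it (-2.84 ± 0.25, adjusted p = 2.53e-05). NPY1R, a neuropeptide Y receptor, went the opposite way in the 2 conditions: 65.9 and 77.2 in pre-ME against 718 and 359.7 in the cjPGCLCs with ActA, and from 748 and 1053 to 215 and 246 without it (4.92 ± 0.45, adjusted p = 2.53e-05).

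Of the 20 tested streak genes 3 passed the test of this difference, CDX1, CDX2 and SP5, all with a more negative change with ActA. CDX1 was at 199 and 147 in pre-ME and 44.05 and 28.4 in the cjPGCLCs without ActA, and its change with ActA minus that without was -2.95 on the log2 scale (adjusted p = 0.00111). CDX2, which went from 27.7 and 29.7 to 25.8 and 20.5 without ActA, differed by -4.16 (adjusted p = 0.00128). Pre-ME with ActA held more of both than pre-ME without it. Of the signalling genes, SMAD7, an inhibitory SMAD, went from 119.7 and 134 to 1928 and 1798 without ActA against 847 and 638 to 2095 and 2039 with it (difference -2.396, adjusted p = 0.000234). EGFR, by contrast, went from 103 and 84.2 to 139 and 117 without ActA (log2 0.44) against 63.4 and 39.3 to 368 and 329.9 with it (difference 2.29, adjusted p = 0.000325). None of the 17 tested early PGC genes passed the interaction in edgeR or DESeq2, with 1 lower at an unadjusted p under 0.05: for SOX17 and NANOS3 the differences were -0.97 ± 0.62 and -1.74 ± 0.98 (SE; adjusted p = 0.376 and 0.314).

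**Figure D5:**
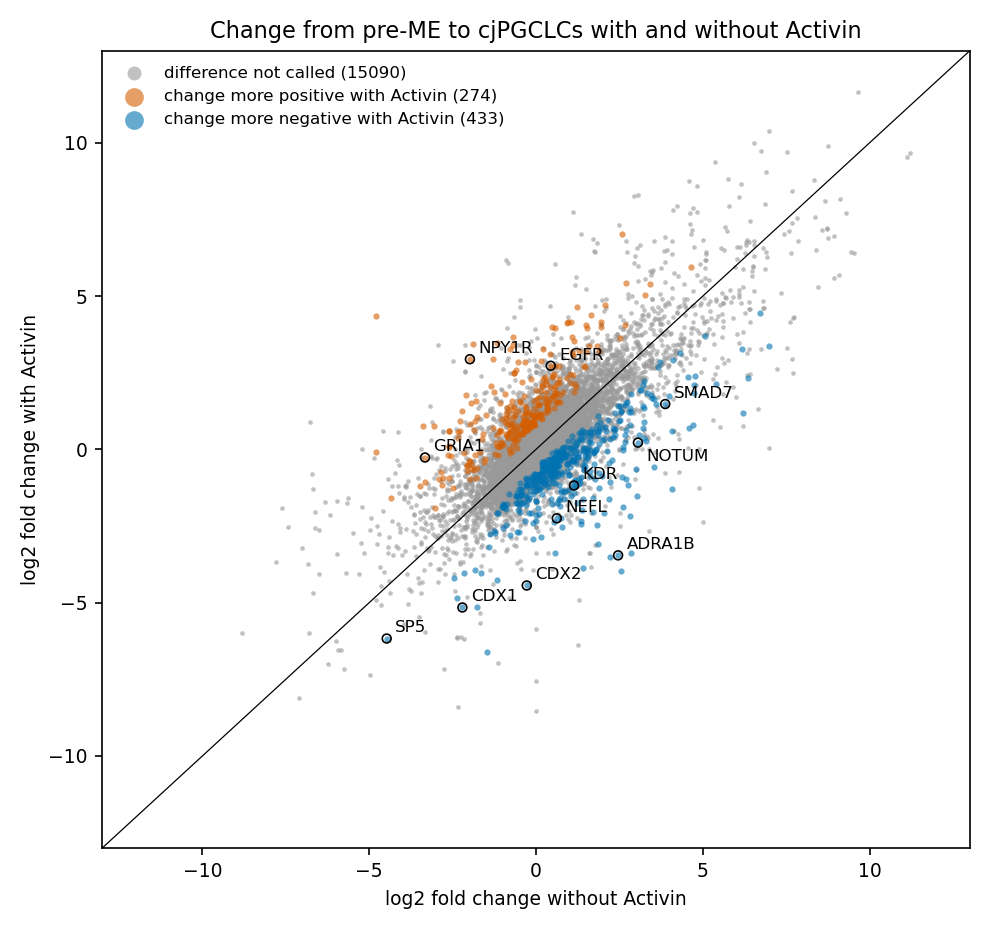
Each point is 1 of the 15797 tested genes, with its log2 fold change of cjPGCLCs over pre-ME without ActA (x) and with ActA (y); the line marks equal change. Orange (274) and blue (433) points passed the test of the difference, with circles on named genes. ADRA1B, NOTUM, CDX1 and CDX2 lie below the line and NPY1R, GRIA1 and EGFR above it.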

How the data were processed

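RNA-seq libraries were made from 20 samples, 2 per group, with a kit that the labels call directional and the study's methods name without that word. The authors aligned reads with STAR (2.7.0a) after FastQC (0.11.8) and counted them per gene with HTSeq (0.11), and deposited the raw counts, as whole numbers, and the normalised signal, which is the count divided by the DESeq2 size factor of the library. The strand setting of the counting and the annotation release are not given in the sources used here, so reads of overlapping and antisense genes may be shared. Rows that name no gene stayed out of library sizes and tests; they held 20.1 to 21.9% of the reads of the 4 libraries compared. The study calls the replicates biological and independent; whether culture, induction and sort were each repeated is not given in the sources used here, and p-values measure the spread between these libraries.

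Raw counts were tested with edgeR (4.0.16, quasi-likelihood, TMM scaling, filterByExpr) over all 20 libraries with 1 coefficient per group, which share 1 estimate of the spread, and adjusted by Benjamini-Hochberg over all 15797 genes tested. Genes were called with a fold of more than 2 on the log2 scale and an adjusted p below 0.05, the interaction at the adjusted p alone. The study's methods name DESeq2, which was run as an alternative (1.42.0). Bounds used a floor of 3 counts per library. The members and gene lists were chosen with earlier results of these data known. Named genes were the list members, the 15 genes with a symbol each way with the largest conservative fold (lowest library of the higher group over highest library of the lower, in TMM-scaled CPM), and the 5 each way with the smallest adjusted p in the interaction; genes named outside this rule are marked as such, and a few genes are not reported here. The code was tested on simulated data. Alternatives were DESeq2, its size factors, the libraries of each comparison only, no low-count filter, genes with an average of at least 1 CPM, glmTreat, a replicate block and leaving out each library.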

Additional observations from a re-analysis of the deposited data

Results flagged for a closer look

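The change from pre-ME to cjPGCLCs differed between the conditions with and without ActA, by a test of the difference itself (edgeR interaction, adjusted p under 0.05 over all genes), for 707 genes: 274 changed more positively with ActA and 433 more negatively. Values below are the log2 change with ActA minus that without, for the named genes among them.

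Of the signalling genes, the difference was negative for the inhibitory SMADs SMAD7 (-2.396) and SMAD6 (-1.36), the BMP antagonist NOG (-1.89), the TGF-beta feedback gene PMEPA1 (-2.39), the ligand GDF1 (-1.31), the WNT genes NOTUM (-2.84) and SP5 (-1.69), and the ERK targets SPRY4 (-2.29) and ETV4 (-2.47). It was also negative for the kinase PIM1 (-1.38) and the secreted factor VEGFA (-2.21). It was positive for the receptors EGFR (2.29), IL6ST (1.23) and LGR4 (1.66), and for the ligand-like FGF12 (2.34).

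Among transcription factors it was negative for CDX1 (-2.95), CDX2 (-4.16), GATA2 (-1.804), ETS2 (-1.85), HEY1 (-1.19) and RUNX1 (-2.01), and the RNA-binding protein LIN28B had a positive difference (1.19). Receptors, channels and neurofilament genes lay on both sides, with ADRA1B at -5.92, NEFL at -2.87, NEFM at -2.48 and KCNK10 at -3.09 below 0, and NPY1R at 4.92, GRIA1 at 3.06 and CHRNA3 at 4.44 above it. Of the remaining genes, ANKRD1 (-3.38), the metalloprotease ADAM19 (-2.53) and the VEGF receptor KDR (-2.32) were negative, and the guidance cue SEMA3E (2.75), the matrix genes COL3A1 (2.72) and LUM (1.68), and the integrin ITGA6 (1.303) were positive.

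Of these 36 genes, 23 kept the call under every alternative run, and 13 lost it under at least 1: CHRNA3, COL3A1, GDF1, IL6ST, ITGA6, KCNK10, LIN28B, LUM, NOG, PMEPA1, RUNX1, SMAD6 and SP5. The cause of the differences was not tested.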

How the results depend on the processing

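The 971 genes that rose and 350 that fell became 893 and 319 in DESeq2, 807 and 293 with the 4 libraries alone, 1031 and 407 with no filter, 720 and 253 with the filter at 1 CPM, and 823 to 1030 and 284 to 367 without 1 library. Testing the fold itself (glmTreat) left 306 and 55, and for the list members 32 and 9 of 49 and 31, since it asks for a fold shown to exceed the threshold. The replicate numbers could not be shown to pair the libraries (correlation of deviations over genes 0.00411 for pre-ME and cjPGCLCs, 0.102 for the same without ActA and 0.111 for cjPGCLCs and somatic cells, each from 2 libraries per group); with the replicate block 966 genes rose and 350 fell, and 1305 of the 1321 calls were shared. Against the somatic cells, 17 were higher and 0 lower under glmTreat in place of 223 and 26, and 100 to 245 higher and 3 to 47 lower without 1 library: 138 and 14 without somatic replicate 1, 100 and 9 without somatic replicate 2, 121 and 3 without cjPGCLC replicate 1, and 47 lower without cjPGCLC replicate 2. Of the interaction, with 274 and 433 genes, 675 were lower in DESeq2, 1109 and 1401 passed with the libraries of the comparison only, 730 and 779 with no filter, and 66 to 194 and 122 to 356 without 1 library, fewest without pre-ME replicate 1 of the ActA condition. The cause of these shifts was not tested.

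A log2 fold change that was not called turned sign for 5 named genes without 1 library: PRDM1 0.00701 (without pre-ME replicate 1; lowest -0.51), NOTUM -0.0368 (without pre-ME replicate 2; highest 0.52), ITGA6 -0.30 (without cjPGCLC replicate 1; highest 0.62), and FGF12 0.00974 and ADAM19 -0.0177 (without cjPGCLC replicate 2; the other ends were -0.50 and 0.17). With 2 libraries per group, differences of less than the replicate spread could not be resolved.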

Other observations

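The genes below were chosen after their values were seen, and their values are descriptions. No list of cardiac muscle or peripheral neuron genes was tested. Some genes known from cardiac muscle were higher in the cjPGCLCs than in pre-ME, whereas NPPB and ANKRD1 fell (log2 -5.47 and -5.14). MYH6, the alpha heavy chain of cardiac myosin, was at 1.67 and 0 in pre-ME against 781 and 124 in the cjPGCLCs, at least 135-fold higher, with replicate 1 far above replicate 2. TTN, the giant sarcomere protein, was at 73.4 and 61.8 in pre-ME against 2092 and 1534 in the cjPGCLCs (log2 fold change 4.73), the myosin chaperone gene UNC45B at 0 and 0 in pre-ME against 191 and 99.5 in the cjPGCLCs, at least 43.3-fold higher, and GATA5, a cardiac and endodermal factor, at 0.834 and 0 in pre-ME against 211 and 145 in the cjPGCLCs, at least 53.1-fold higher. SMYD1, a muscle methyltransferase, was at 6.68 and 7.02 in pre-ME against 269 and 198 in the cjPGCLCs (log2 fold change 5.08). NKX2-5, a defining regulator of cardiac progenitors, held only 3.38 and 1.42 in the cjPGCLCs. The somatic cells carried several of these genes as well, with MYH6 at 138 and 204 and GATA5 at 200.1 and 129.7.

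Genes known from neurons also went both ways, and the neurofilament genes NEFM and NEFL fell (log2 -4.85 and -2.25). NGFR, the low-affinity neurotrophin receptor, was at 9.18 and 14.04 in pre-ME against 944 and 682 in the cjPGCLCs (log2 fold change 6.19), and PRPH, an intermediate filament, at 9.18 and 29.5 in pre-ME against 2039 and 1702 in the cjPGCLCs (log2 fold change 6.75); the somatic cells held 591 and 334 and 1944 and 1533. Of the imprinted genes, IGF2 was at 19.2 and 14.04 in pre-ME against 927 and 1115 in the cjPGCLCs, PEG3 at 4867 and 4605 in pre-ME against 29508 and 26927 in the cjPGCLCs and DLK1 at 16.7 and 19.7 in pre-ME against 171 and 102 in the cjPGCLCs (log2 fold change 5.89, 2.58 and 2.94), all 3 without overlap, whereas CDKN1C was at 982 and 805 in pre-ME against 2305 and 2134 in the cjPGCLCs, below the fold threshold (log2 1.31).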
